A study of Homo sapiens with 4 samples.

Results

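Stretches of the genome where CHD5 peaks lie in close succession were examined in cells of the human neuroblastoma line SH-SY5Y. Peaks on chromosomes 1 to 22 were put in order, and neighbours no more than 12.5 kb apart were joined into runs. Runs of 5 or more peaks are called clusters. There were 515 clusters among 21418 runs, and they held 3309 of the 32250 autosomal CHD5 peaks, or 10.3%. The clusters were chosen by the positions of CHD5 peaks alone. Their number, span, peak count, peak widths and peak scores are therefore a description, and no test of them is given. The H3K27me3 list played no part in the choice.

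The study profiled chromatin by ChIP-seq, that is, by sequencing DNA recovered with a protein or histone mark. Cells expressing FBio-CHD5, a form of CHD5 that is captured on streptavidin beads, had been kept for 8 days in 10 uM retinoic acid, and this holds for both libraries used here. One of these libraries came from the streptavidin pull-down of FBio-CHD5 and the other from an H3K27me3 antibody applied to cells with the same construct. A streptavidin pull-down from cells with FBio-Ctrl and an input DNA library, from the same retinoic acid treatment, complete the 4 libraries and were not analysed here. Peaks that streptavidin would also recover from the control cells cannot be told apart from CHD5 peaks in this list. The CHD5 was an introduced construct, and what drives its expression is not given in the sources used here. Each group has 1 library, so no value has a replicate error. The lists give positions and a score but no read counts, and the depth of each library is unknown.

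CHD5 is a chromodomain helicase that remodels nucleosomes. It is expressed chiefly in neurons and testis and is often lost in neuroblastoma together with part of the short arm of chromosome 1. H3K27me3 is the mark that the Polycomb repressive complex PRC2 places on histone H3, and it covers silent developmental genes in long blocks. Joining neighbouring peaks across the gap used here is a common way to define extended regulatory regions such as super-enhancers, where many bound sites lie close together.

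The clusters were mostly short chains of peaks, with a tail of a few very large ones. Their span, from the start of the first peak to the end of the last, had a median of 33.2 kb, with the central 80% between 19.96 and 57.7 kb and extremes of 9.52 and 208 kb. Of the 515 clusters, 256 held exactly 5 peaks (49.7%), 32 held 10 or more, and the largest count was 32. A span of at least 50 kb was reached by 90 clusters and of at least 100 kb by 8. Together the clusters spanned 19.3 Mb, or 0.669% of the autosomes as measured to the last region listed on each chromosome. Across clusters, the number of peaks and the span had a Spearman rho of 0.65 (n = 515), which describes these clusters only, since each added peak lengthens a run.

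**Figure D1:**
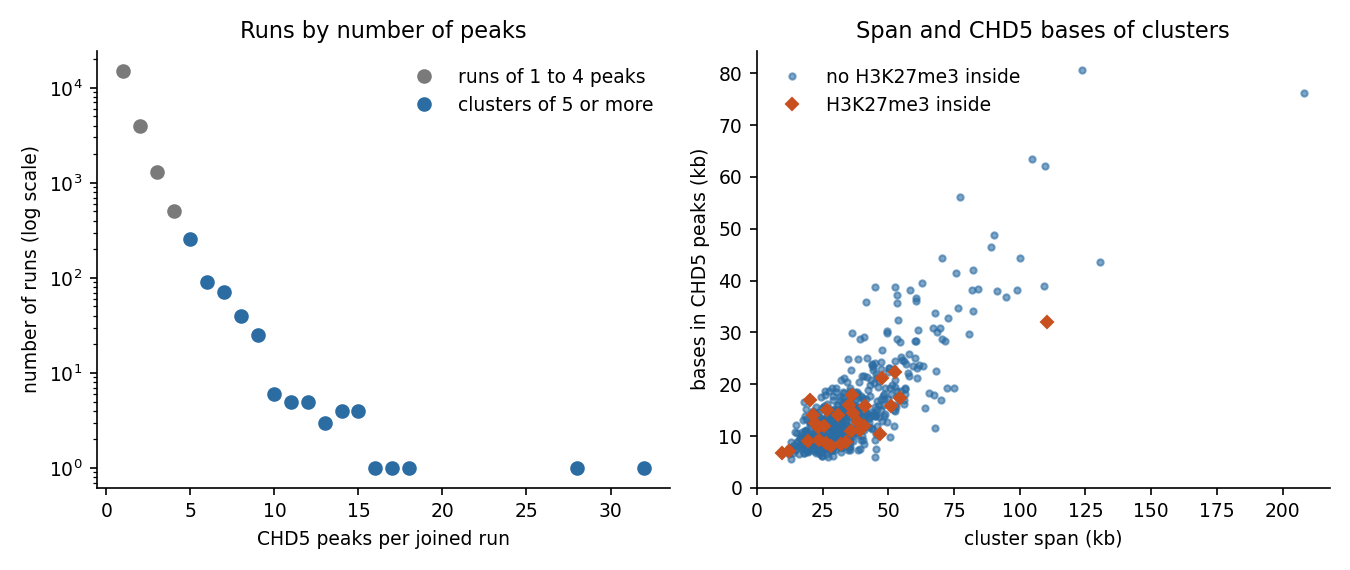
Left, number of joined runs (log axis) against CHD5 peaks per run, from 15153 single peaks to 1 run of 32 peaks. Right, bases in CHD5 peaks against span, both in kb, for the 515 clusters; the 29 with H3K27me3 inside are diamonds and all but 1 of them lie below 60 kb of span.

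Within a cluster the peaks filled a large part of the span. CHD5 peaks covered 8.04 Mb of the clusters in all, which was 12.5% of all autosomal bases in CHD5 peaks and 41.8% of the cluster span. The covered share of single clusters ranged from 13.1% to 92.6% with a median of 41.3%. The 2794 gaps between neighbouring peaks of a cluster had a median of 2.88 kb, and 812 of them (29.1%) were under 1 kb, down to 1 bp.

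Clusters also held wider and higher scoring peaks than the rest of the list. The score is the one the authors' peak caller gave each peak, and it is compared here only within the CHD5 list. The 3309 clustered peaks had a median width of 1932 bp, against 1624 bp for the 28941 other autosomal peaks. Their median score was 149, against 115 for the others. The rise came from the upper end of the list. With the autosomal peaks divided by score into 10 equal bins, clusters held 7.88% of the peaks in bin 1, the lowest, 9.18% in bin 6, 12.5% in bin 9 and 19.0% in bin 10. By width the share went from 7.38% in the narrowest bin to 19.0% in the widest. At least 1 peak of 5 kb or more was present in 143 clusters (27.8%), against 2.92% of runs with fewer than 5 peaks, which offer fewer peaks each. The score of a peak and its chance of having listed neighbours come from the same library, so this difference carries no test.

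Scores were uneven inside a cluster. The highest score of a cluster was a median of 2.97 times the median score of its own peaks, and up to 19.2 times. The first and last peaks of a cluster had a median score of 140 and a median width of 1888.5 bp. The inner peaks had 154 and 1954 bp. The highest scoring peak was at an edge in 169 clusters (32.8%), where edge peaks made up 31.1% of all clustered peaks. One value is a share of clusters and the other of pooled peaks, so they compare only roughly. On that footing the highest score lay at an edge about as often as edge peaks occur. Of the 10 autosomal peaks that share the highest deposited score of 3100, 2 lay in clusters, named here after their values were seen. They were in a cluster of 6 peaks on chromosome 2 from 1514118 to 1559956 and in one of 5 peaks on chromosome 2 from 29465388 to 29506238.

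The limits of the rule were crossed gradually. Clusters of exactly 5 peaks had a median span of 27.3 kb and runs of exactly 4 peaks, of which there were 500, a median of 21.4 kb. The 5 longest runs of 4 peaks spanned 39.3 to 47.6 kb, which is more than most clusters. The longest lay on chromosome 17 from 53766094 to 53813723, and 2 more of the 5 were also on chromosome 17. The largest gap kept inside a cluster was 12495 bp and the smallest gap that ended one was 12524 bp. Of the 972 gaps that bounded a cluster, 76 were no longer than 15 kb, while 265 of the gaps inside were at least 10 kb.

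The 2 largest clusters by number of peaks were both on chromosome 4. All positions are on build hg19 and count from 1. The first ran from 140682337 to 140890352, spanned 208 kb and held 32 peaks that covered 76.2 kb (36.7%). Its peaks were of moderate score, with a median of 184 and a maximum of 817, and none was wider than 4.47 kb. The second ran from 175112111 to 175216816 and packed 28 peaks into 105 kb. Its gaps had a median of 1.00 kb and CHD5 covered 60.6% of its span, with the highest score, 1205, at its first peak. No H3K27me3 region lay inside either cluster. The nearest was 249.5 kb away for the first and 84.8 kb for the second.

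Counted by CHD5 bases, a cluster on chromosome 17 came first. It ran from 55582354 to 55706004, with 16 peaks over 124 kb, of which 80.6 kb (65.2%) lay in peaks. It differed from the clusters on chromosome 4 in the size of its peaks, which had a median width of 4258.5 bp and included 3 peaks over 10 kb, the widest of 13.2 kb. Its last peak had the highest score of the cluster, 2064. The nearest H3K27me3 region was 500.5 kb away. A further cluster on chromosome 17, from 46055474 to 46132596, was the most densely filled of the 10 with the most CHD5 bases. Its 14 peaks covered 72.6% of 77.1 kb, with a median gap of 0.269 kb, and H3K27me3 began 76.9 kb beyond its end.

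The other clusters among the 10 with the most peaks held 14 to 18 peaks each. On chromosome 16, 18 peaks lay from 85229220 to 85328359 and 12 more from 85349846 to 85450122. The second of these had the higher median score, 401 against 140. On chromosome 11, 17 peaks lay from 44708733 to 44817880. Clusters of 15 peaks were found on chromosome 7 from 69225587 to 69356300, on chromosome 4 from 151272702 to 151367333, and on chromosome 10 from 72950741 to 73039862 and from 80160747 to 80236524. The one on chromosome 7 was the second longest of all, at 131 kb, but had the lowest median score of the 10, 97.4, and CHD5 on 33.3% of its span. A cluster of 14 peaks lay on chromosome 5 from 139014480 to 139105827.

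Large span without as many peaks was seen on chromosome 1. There, 12 peaks with a median width of 4437.5 bp covered 56.8% of 109 kb from 216674687 to 216784141. Also on chromosome 1, from 179696636 to 179786754, 11 peaks covered 54.1% of 90.1 kb and included one of 14.1 kb. On chromosome 11, from 72014506 to 72085037, 9 peaks covered 63.0% of 70.5 kb with the highest median score of the clusters named by size, 580. The lists of the 10 clusters with the most peaks, the longest span and the most CHD5 bases held 16 clusters between them, and 4 clusters were in all 3. Of these 16 clusters, 1 had H3K27me3 inside and 2 had it within 50 kb outside. Over all 515 clusters the shares were 5.63% and 16.1%, and with so few clusters no difference is read from these counts.

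Clusters occurred on all 22 autosomes but were not evenly spread. Chromosome 17 had 45 clusters, or 55.4 per 100 Mb, and 18.8% of its CHD5 peaks lay in them. Chromosome 20 came next, with 17 clusters, followed by chromosome 1 with 26.1 per 100 Mb and chromosome 2 with 23.8. Chromosome 21 had 3 clusters, or 6.24 per 100 Mb, with 5.23% of its peaks in clusters. The share of a chromosome's peaks that lay in clusters ranged between 5.23% and 13.1% outside chromosome 17. Chromosome 17 thus stood above the others in both measures. Its peaks were also densely listed, with 1619 over 81.2 Mb, against 32250 over 2879 Mb on all autosomes. Both measures rise where peaks lie closer together, and they were not adjusted for this. Its number of DNA copies in these cells was not examined.

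**Figure D2:**
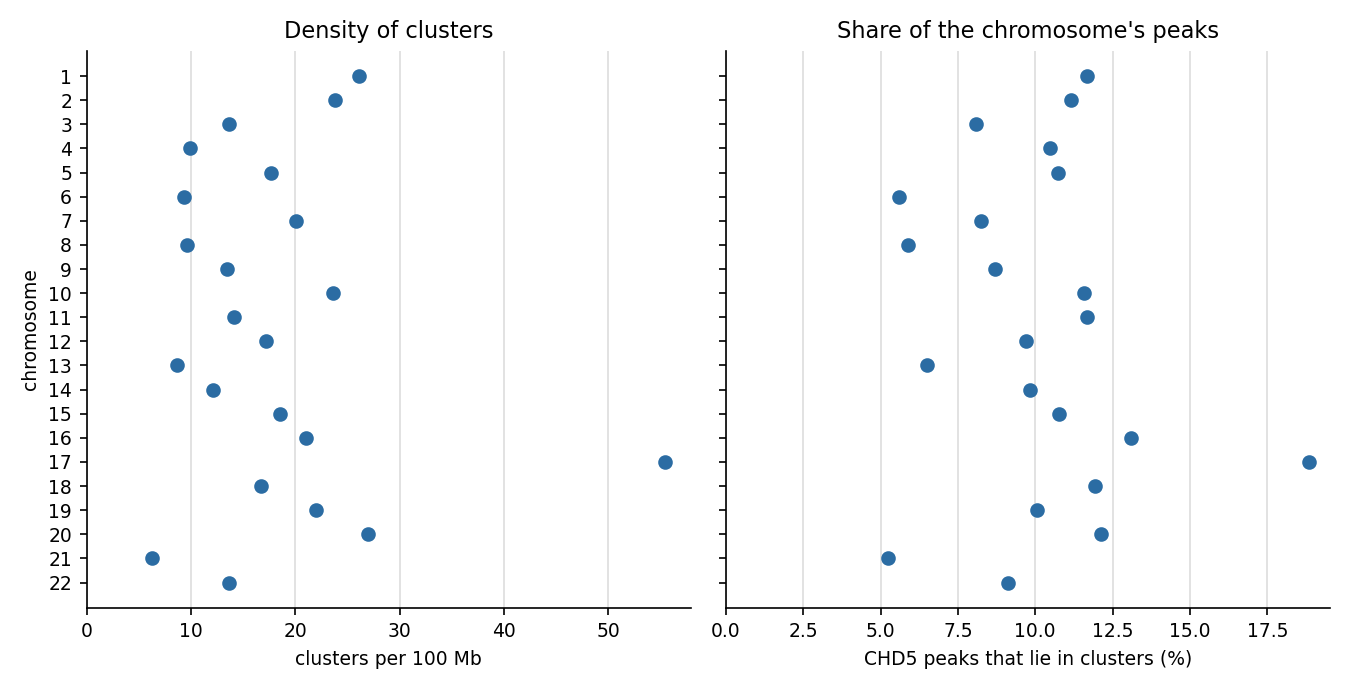
Clusters per 100 Mb (left) and percent of a chromosome's CHD5 peaks that lie in clusters (right), 1 point per autosome. Chromosome 17 lies apart at 55.4 clusters per 100 Mb and 18.8% of peaks.

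Some clusters lay near each other. Another cluster was within 100 kb of 144 of the 515 (28.0%), and these formed 61 groups of 2 or more. The groups named here were chosen after their values were seen. On chromosome 10, 5 clusters with 38 peaks lay between 79953861 and 80395470. On chromosome 2, 5 clusters with 26 peaks lay between 47213319 and 47574857. On chromosome 16, 4 clusters with 45 peaks lay between 85170312 and 85510042. None of these 3 groups had an H3K27me3 region inside a cluster. A group of 5 clusters on chromosome 12, between 54391577 and 54774271, did, and is described further on.

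H3K27me3 inside the clusters was then counted, a measure that did not enter their choice. Of the 3309 clustered peaks, 46 shared at least 1 bp with an H3K27me3 region, or 1.39% (Wilson 95% interval 1.04% to 1.85%). Of all autosomal CHD5 peaks, 2.12% did. For the 28941 peaks outside clusters the share was 2.20% (2.04% to 2.38%). The difference was -0.81 percentage points (Newcombe 95% interval -1.20 to -0.33). Against peaks in runs of 2 to 4 alone it was -0.46 points (-0.88 to 0.046), an interval that reaches above 0. The intervals cover counting error only, and they are too narrow where neighbouring peaks share their surroundings. With 1 library of each kind, no test over samples was possible.

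Among the 4 classes of size the share was lowest in the largest clusters, on few events, and it did not fall step by step with the number of peaks. Single peaks met H3K27me3 in 2.53% of cases and peaks in runs of 2 to 4 in 1.85%. In clusters of 5 to 9 peaks the share was 1.57% (1.17% to 2.09%), an interval that includes the value for runs of 2 to 4. In clusters of 10 or more it was 1 peak of 441, or 0.227% (0.0400% to 1.27%). Those peaks lie in 32 clusters and are not independent. Counted by cluster, 1 of the 32 had the mark inside, or 3.125% (0.554% to 15.7%), an interval that includes the 5.80% of clusters of 5 to 9. By exact size the values went up and down, from 0.950% in runs of 4 to 1.56% in clusters of 5 and 2.93% in clusters of 6. In clusters of 6 peaks, 6 of the 16 overlapping peaks came from a single cluster on chromosome 2. Clustered peaks had the lower share on 19 of 22 chromosomes, the exceptions being chromosomes 2, 19 and 20. On 13 of the 22 no clustered peak met H3K27me3, and any such chromosome counts as lower. Some of these hold few clustered peaks, such as 16 on chromosome 21, where a count of 0 carries little weight. The tally by chromosome is therefore a description only.

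**Figure D3:**
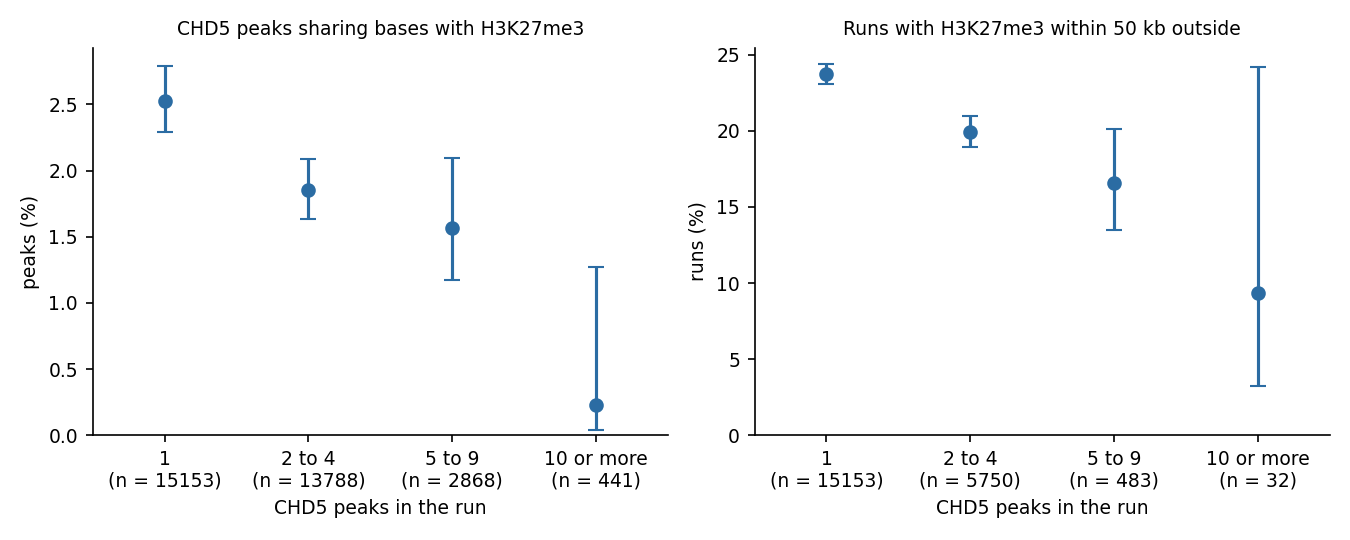
Percent of CHD5 peaks that share bases with H3K27me3 (left) and percent of runs with H3K27me3 within 50 kb outside (right), by number of peaks in the run, with Wilson 95% intervals. Shares go from 2.53% to 0.227% on the left and from 23.7% to 9.38% on the right, and the interval for the 32 clusters of 10 or more is wide.

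The mark was found anywhere in the span of 29 clusters, or 5.63% (Wilson 95% interval 3.95% to 7.97%). Over all runs, single peaks included, 3.16% had it inside. Long runs offer more bases to hit, so the covered share of bases was also taken. H3K27me3 covered 0.332% of the bases inside clusters, 0.663% inside runs of 2 to 4 peaks and 1.08% inside single peaks. Runs of exactly 4 peaks, just outside the rule, had 0.281% of their span and 0.256% of their peak bases covered, both below the values for clusters. Cover was thus not lower in clusters than in the runs next to the limit. It covered 2.86% of the autosomes as a whole. Inside clusters, 0.374% of the bases in CHD5 peaks and 0.301% of the bases between peaks carried the mark. Of the first and last peaks of clusters, 16 of 1030 met the mark (1.55%, 0.958% to 2.51%). Of the inner peaks, 30 of 2279 did (1.32%, 0.924% to 1.87%), and the intervals of edge and inner peaks overlap.

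The mark inside clusters was concentrated in a handful of places. A total of 163 H3K27me3 regions lay in or reached into clusters, of which 79 touched a CHD5 peak. In 23 of the 29 clusters at least 1 peak met the mark, and in 6 it lay only between peaks. A single region was present in 7 clusters and 3 or more in 18. The 29 clusters had a median span of 33.9 kb, close to the 33.1 kb of the other 486. One cluster held 33.0% of all H3K27me3 bases found in clusters, and the 4 clusters with the most held 54.2%. Without that cluster, the covered share of bases inside clusters was 0.222%, and without the 4 it was 0.153%.

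The cluster with most of the mark lay on chromosome 2 from 176945301 to 176977152. It held 42 H3K27me3 regions that covered 21.1 kb, or 66.2% of its 31.9 kb, and CHD5 peaks covered 26.7%. All 6 of its CHD5 peaks met the mark. The first, from 176945301 to 176946613, was covered to 90.3%, and the second, from 176947171 to 176948554, to 90.2%. The next 3 were covered to 38.6%, 69.7% and 68.8%, and the last, from 176975213 to 176977152, to 19.6%. Scores of these peaks were low to moderate, at 83.5, 70.9, 98.3, 155, 65.0 and 196 in order along the chromosome. In the 50 kb before the cluster, 2 regions covered 0.391 kb, and in the 50 kb after it there were none. Inside, the first H3K27me3 region began 0.105 kb after the start of the cluster and the last began at 30.2 kb, so the mark ran the length of the cluster.

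A different layout was seen on chromosome 7 from 25884154 to 25904491. Its 5 peaks covered 83.8% of 20.3 kb, and the mark took up one side only. The first peak, from 25884154 to 25888949, and the second had none. The third was covered to 20.3%, the fourth to 70.1% and the last, from 25902597 to 25904491, to 79.3%. H3K27me3 covered 28.2% of this cluster in all and went on past it, with 6.50 kb in the 50 kb after its end and 0 in the 50 kb before its start.

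On chromosome 2 from 60756855 to 60797908, 8 peaks over 41.1 kb held 9 H3K27me3 regions that covered 4.29 kb (10.5%). The first 5 peaks, with scores up to 433, had none. The others were covered to 6.68%, 36.5% and 26.4%. Most of the mark there lay in the gap of 10.9 kb before the last 2 peaks.

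On chromosome 12 from 54391577 to 54427483, a cluster of 7 peaks sat at the end of a long marked stretch. In the 50 kb before it, 59 H3K27me3 regions covered 40.6 kb, the most beside any cluster, and in the 50 kb after it there were 0. Inside, 13 regions covered 3.48 kb (9.70%), and 2 peaks met them, to 65.4% and 72.1% of their width. The peak with the highest score, 525, from 54409497 to 54412948, did not. A cluster of 7 peaks followed from 54445206 to 54485650, with no region inside, 9 in the 50 kb before it and 10 in the 50 kb after it. This cluster and the last of the group are described after their values were seen. The 9 regions before the cluster that starts at 54445206 also lie inside the cluster that ends at 54427483. The last of the group, from 54744805 to 54774271, had a median score of 524 and no mark inside, but 19 regions in the 50 kb after its end.

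**Figure D4:**
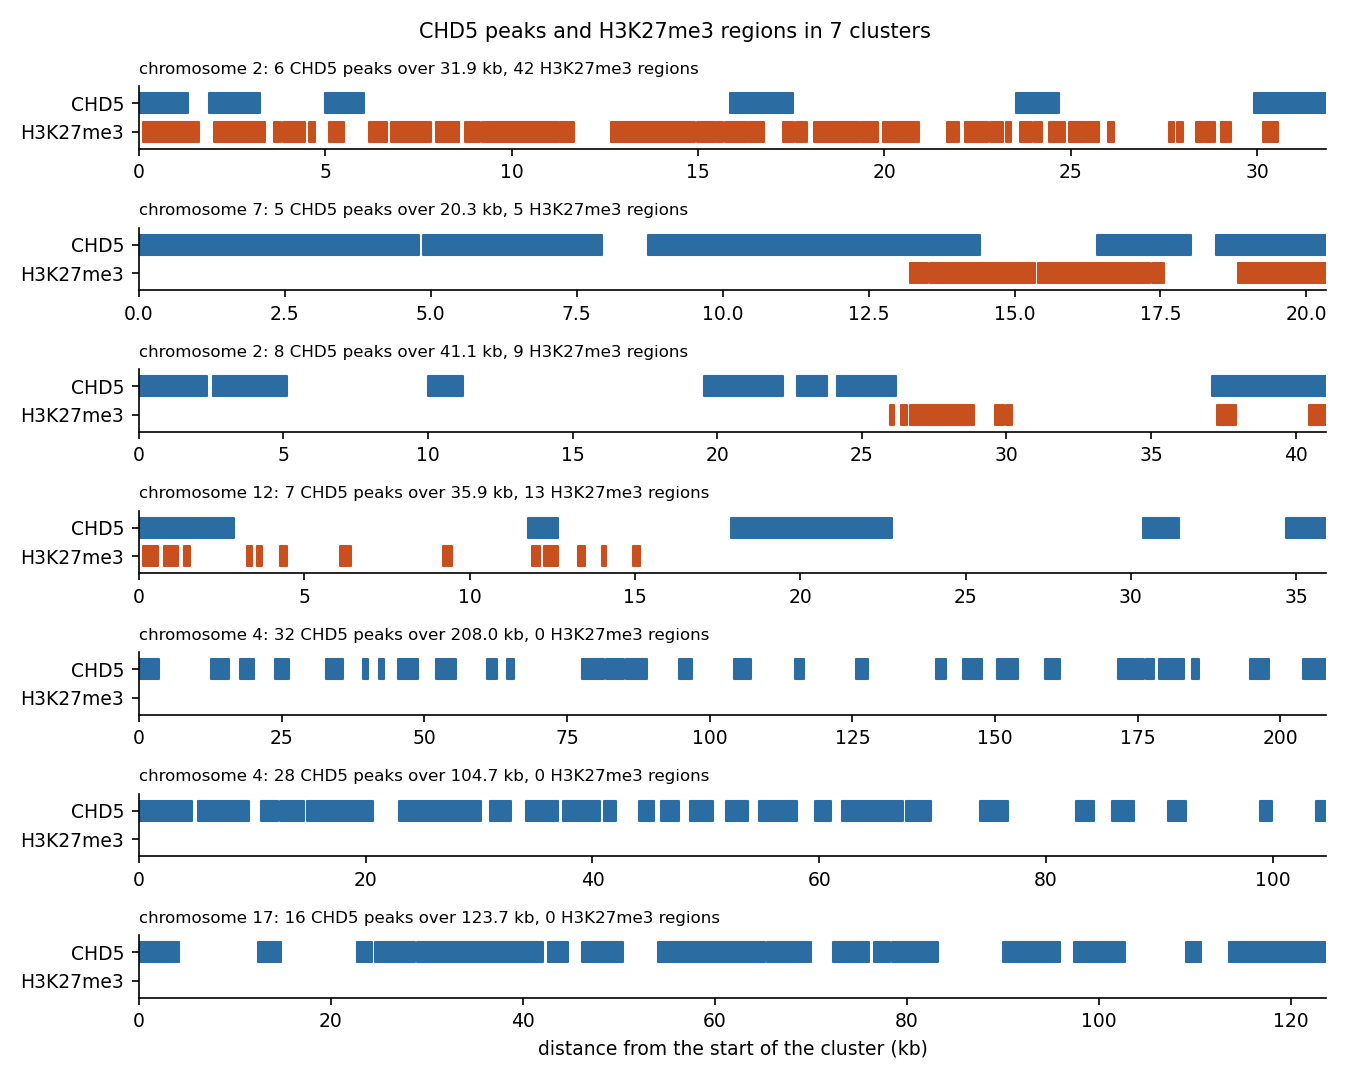
CHD5 peaks (upper bars) and H3K27me3 regions (lower bars) in 7 clusters, by distance in kb from the start of each cluster. The 4 upper maps are the clusters with the most H3K27me3, and the lower 3, on chromosomes 4 and 17, hold 32, 28 and 16 CHD5 peaks and no H3K27me3 region.

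The remaining clusters with the mark carried little of it. The longest was on chromosome 17 from 8020562 to 8131000. It spanned 110 kb with 13 peaks and was the only cluster of 10 or more peaks with any H3K27me3, 3.07 kb in 13 regions, or 2.78% of its span. A single one of its peaks met the mark. On chromosome 20, from 20321224 to 20346729, 4 of 6 peaks did, and 2.73 of the 2.90 kb of H3K27me3 lay inside peaks. On chromosome 4, from 55081221 to 55100536, 3 of 5 peaks did, with 12.9% of the span covered. The other 3 of the 10 clusters with the most H3K27me3 had 1.74 to 2.25 kb each. They lay on chromosome 7 from 128046026 to 128100303, and on chromosome 17 from 77801808 to 77823067 and from 71570665 to 71611549. The median of the 29 clusters was 1.12 kb, or 3.87% of the span.

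Clustered peaks that met H3K27me3 had the lower median score. Their median score was 127 over 46 peaks, against 150 over the other 3263, at median widths of 1834 and 1933 bp. They were covered to a median of 24.9% of their width, against 30.4% for the 638 overlapping peaks outside clusters. Of these 46 peaks, 6 belong to the 1 cluster on chromosome 2, and this difference was not tested.

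H3K27me3 regions were also merged into domains across distances of 3 kb or less. Clusters met 36 of the 33793 autosomal domains. Of these 36, 30 lay wholly inside a cluster and 8 were at least 5 kb wide. Their median width was 2.24 kb, and that of all autosomal domains was 1.79 kb. A wider domain is more easily met by any set of runs. Domains met by other runs were not counted, so neither the count nor the width is read as particular to clusters. The widest that was met spanned 113 kb and was the only one of at least 50 kb.

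Around the clusters H3K27me3 was also sparse. A region was present within 50 kb outside in 83 clusters, or 16.1% (Wilson 95% interval 13.2% to 19.5%). Of all runs, 22.5% had one. For runs of fewer than 5 peaks the share was 22.7%, a difference of -6.56 points (Newcombe 95% interval -9.54 to -3.09). Against runs of 2 to 4 peaks the difference was -3.81 points (-6.92 to -0.24). Neighbouring runs can share flanks and regions, and 28.0% of the clusters lay within 100 kb of another. The intervals treat runs as independent and are too narrow, so the one that ends at -0.24 may reach 0. The flanks are equally long for runs of every size, so this count does not grow with span. By chromosome, clusters had the lower share on 16 of 22. On chromosomes 6, 12, 13, 19, 20 and 21, which held 3 to 23 clusters each, it was the higher one. Chromosome 19 had the highest share in clusters, 46.2%, where other runs had 41.8%.

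H3K27me3 seldom lay on both sides of a cluster. Of the 83 clusters, 80 had it within 50 kb on 1 side and 3 on both, or 0.583% of all clusters. Of all runs, 5.10% had it on both sides, and of runs of 2 to 4 peaks 3.17%. Among runs of fewer than 5 peaks, which are mostly single peaks, 5.21% had it on both sides. From these last the clusters differed by -4.63 points (Newcombe 95% interval -5.12 to -3.47). Unlike the count on either side, this one depends on span, which sets how far apart the 2 flanks lie. The median span was 33.2 kb for clusters and 2.01 kb for runs of fewer than 5 peaks. One marked stretch can more easily reach both flanks of a short run, so the difference is not read as a trait of clusters. The 3 clusters were on chromosome 1 from 205441663 to 205485880, on chromosome 2 from 38322005 to 38348853 and on chromosome 12 from 54445206 to 54485650, and none of them had the mark inside. They are named because they are so few, after their values were seen. For the one on chromosome 12, the regions before it lie inside the preceding cluster. The flanks that held any had little, with a median of 0.413 kb in both flanks together. More than 5 kb was found beside 11 clusters.

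Counted by peak, 13.1% of clustered peaks lay within 50 kb of an H3K27me3 region (Wilson 95% interval 11.95% to 14.2%), while 21.1% of all autosomal peaks did. Peaks outside clusters had 22.1%. In clusters of 10 or more peaks the share was 2.72% (1.56% to 4.70%), or 12 peaks of 441. Those 441 peaks lie in 32 clusters, of which 3 had the mark inside or within 50 kb. Peaks of a cluster are not independent, so the intervals by peak are too narrow. Counted by cluster, 9.375% of the 32 had it within 50 kb outside (3.24% to 24.2%). The distance from a cluster to the nearest region had a median of 180 kb, with quartiles of 70.2 and 376 kb. For runs of fewer than 5 peaks the median was 157 kb, with quartiles of 55.8 and 337 kb. Those ranges overlap widely. The nearest region was over 100 kb away for 349 clusters and over 500 kb away for 86, and at most 1619 kb. Over all runs the median distance was 158 kb, so distances over 100 kb were common among runs in general.

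The share of bases in H3K27me3 regions was then followed outward from the clusters. It was 0.332% inside, 0.239% in the first 10 kb outside, 0.290% from 10 to 20 kb and 0.256% from 20 to 30 kb. From there it rose, to 0.560% at 40 to 50 kb, 0.722% at 50 to 100 kb, 1.35% at 100 to 200 kb and 2.37% at 200 to 500 kb. The first 10 kb hold no CHD5 peak because the rule would have joined it. Around runs of 2 to 4 peaks the same steps went from 0.561% at 0 to 10 kb to 3.94% at 200 to 500 kb, and around single peaks from 1.08% to 7.15%. Values around clusters were the lowest at each of these distances. The steps around a class of runs can contain runs of other classes, and distant steps around the numerous single peaks are what is left far from all of them.

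**Figure D5:**
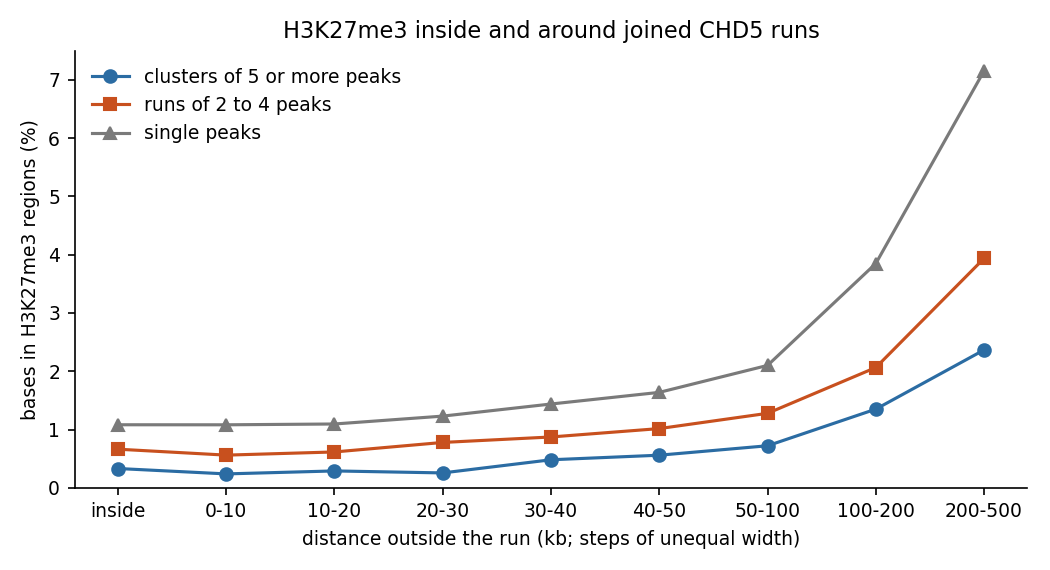
Percent of bases in H3K27me3 regions inside runs and at growing distance outside them, for clusters of 5 or more peaks, runs of 2 to 4 peaks and single peaks. Around clusters the share is 0.332% inside, 0.239% in the first 10 kb and 2.37% at 200 to 500 kb, below the other classes at each step.

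Over the whole 50 kb on either side of the clusters, H3K27me3 covered 0.359% of the bases, so the share inside was 0.92 times that outside. This ratio depends on few places. It was 0.619 without the cluster on chromosome 2 from 176945301 to 176977152, and 1.31 with flanks of 25 kb. No difference between the clusters and their immediate flanks is therefore reported. In the flanks, CHD5 peaks of other runs covered 5.06% of the bases, against 1.998% in the flanks of runs of 2 to 4 peaks. These 2 values are not alike, because the flanks of a class leave out all runs of that class. Runs of 2 to 4 peaks held 43.4% of the autosomal CHD5 bases and clusters 12.5%. No difference in CHD5 around the clusters is therefore reported. Whether CHD5 around the clusters plays a part in their low H3K27me3 was not tested.

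Neither H3K27me3 inside nor within 50 kb was found for 418 clusters, or 81.2%. The share was 76.9% over all runs, 76.8% of runs with fewer than 5 peaks and 78.7% of runs of 2 to 4. Lacking the mark nearby was thus common to runs in general. The 5 longest of the 418 were, first, the clusters of 32 peaks on chromosome 4 and of 15 peaks on chromosome 7 from 69225587. They were followed by those of 16 peaks on chromosome 17 from 55582354, of 12 on chromosome 1 from 216674687 and of 17 on chromosome 11 from 44708733. Among clusters of 10 or more peaks, 29 of 32 were of this kind.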

How the data were processed

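Lists of enriched regions for the CHD5 pull-down and for H3K27me3 were used, with 1 library each. Per the file headers, MACS called both, and per the submitters' processing notes the build is hg19. The aligner, the MACS settings and the background library are not stated in what was used here. Each region carries a score deposited by the authors. Its scale is not stated and its smallest value is 50, so it was compared only within its own list. No read counts are given and depth is unknown.

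Autosomal CHD5 peaks no more than 12.5 kb apart were joined, and runs of 5 or more peaks are the clusters. Peaks on X (276) and Y (17) were left out. Overlap means at least 1 shared bp. Flanks reach 50 kb from the first and last base of a run. A region that crosses an edge counts as inside and outside. For shares of bases in flanks, each base was counted once. Bases inside clusters, or for other classes inside runs of that class, were left out. A chromosome's length was taken as the last base of any region in the 2 lists. Intervals are Wilson or, for differences, Newcombe intervals at 95%. The interval routines gave the same values as base-by-base arrays in 40 of 40 sets of simulated data. With bedtools 2.31.1 the same 515 clusters and 684 overlapping autosomal peaks were counted. Python 3.11.15, numpy 2.4.6, pandas 2.3.3 and matplotlib 3.10.9 were used.

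Positions named by rule are the 10 clusters with the most peaks, the longest span, the most CHD5 bases and the most H3K27me3 bases, the 5 longest without H3K27me3 inside or within 50 kb, and the 5 longest runs of 4 peaks. Other positions (clusters with the highest score, cluster groups, clusters with H3K27me3 on both sides) were chosen after their values were seen. The clusters and these lists were chosen with earlier results of these data known. Coordinates count from 1. The annotation at hand is of another build, so gene names, sequences and cell type markers were not analysed here. Alternatives covered the joining distance, the number of peaks, score limits, overlap, flank length, joined H3K27me3 domains and chromosomes.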

Additional observations from a re-analysis of the deposited data

How the results depend on the processing

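The lower overlap of clustered than of other CHD5 peaks with H3K27me3 kept its direction in 11 of 11 alternatives, from -1.92 to -0.37 points, and its counting interval lay below 0 in 10. Among the 11, leaving out the 1 or the 4 clusters with the most H3K27me3 lowers the clustered share by construction. Those alternatives could not turn the sign and add no support. No alternative compared clusters with runs of 2 to 4 peaks alone, where the main interval reached above 0 (-0.88 to 0.046). With gaps of up to 5 kb the difference was -0.47 points and the interval reached above 0. It moved to -1.92 points with 10 or more peaks, to -1.34 with CHD5 scores at or above the median, and to -1.23 without the 4 clusters with the most H3K27me3. The number of clusters follows from the rule: gaps of up to 5 kb gave 132 and of up to 25 kb 1068, 3 or more peaks gave 2303, 10 or more 32, and CHD5 scores at or above the median 115. Clusters with H3K27me3 inside made up 9.83% with gaps of up to 25 kb, 3.125% with 10 or more peaks and 3.88% without chromosomes 7 and 17. Clusters with H3K27me3 within the flanks made up 9.375% with 10 or more peaks, 8.74% with H3K27me3 scores at or above the median, 7.57% for 25 kb and 30.1% for 100 kb. The ratio of H3K27me3 cover inside to that in the flanks turned to 2.15 with gaps of up to 5 kb and to 1.31 with flanks of 25 kb. It was 0.602 with 10 or more peaks and 0.585 without the 4 clusters. The cause of these moves of the ratio was not tested. Leaving out the 1 or the 4 clusters with the most H3K27me3 was chosen after the data were examined. With 1 library per group, no replicate could be left out.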
